A study of Mus musculus with 6 samples.

Results

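Tight junctions seal neighbouring epithelial cells to each other at the border between their apical and lateral membranes. Claudins, a family of small membrane proteins, form the sealing strands and set which ions and solutes pass between the cells, while occludin and tricellulin, which belong to the MARVEL family, sit in the same strands and at the corners where cells meet. Zonula occludens (ZO) scaffold proteins bind the cytoplasmic tails of the strand proteins and tie them to the actin cytoskeleton. Loss of claudins and occludin is a textbook feature of epithelial-mesenchymal transition (EMT), and mammary carcinomas differ widely in how much of them they express. The genes examined here were 9 of the 48587 genes listed in the deposited counts, chosen by name: the claudins Cldn1, Cldn3, Cldn4, Cldn7 and Cldn12, occludin (Ocln), tricellulin (Marveld2), ZO-1 (Tjp1) and ZO-3 (Tjp3). The choice was made with earlier results of these data known.

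Total RNA had been sequenced from 4T1 cells, which derive from a mouse mammary tumour. The METTL7A1 group (3 libraries) came from cells stably transfected with full-length Mettl7a1 cDNA in the pBICEP-CMV-2 vector, whose CMV promoter drives strong constitutive expression. The mock group (3 libraries) came from mock cells, which per the study stably carried the empty vector. Per the labels all cells were kept in DMEM/F12 with serum and under G418 selection at 350 μg/ml, and each group was a biological triplicate. Whether a transfected line was 1 clone or a pool is not given in the sources used here, so an effect of METTL7A1 and a difference between the lines cannot be told apart. In bulk RNA, a higher level in every cell and a larger share of cells with that transcript cannot be told apart either.

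Libraries held between 18386780 and 28459338 counts, and 13166 genes passed an abundance filter (a level of 1 cpm in 3 or more libraries, where cpm is the counts-per-million scale), all 9 tight junction genes among them. Mettl7a1, the transfected gene, had 6355 to 11358 counts in the METTL7A1 libraries and 29 to 30 in the mock libraries, so every library followed its label. The luminal keratin Krt8 stood at 406 ± 45.8 cpm in METTL7A1 and 405 ± 50.2 cpm in mock cells (SD, n = 3 each), and Cdh1, the gene of E-cadherin, at 615 ± 28.6 and 624 ± 55.6 cpm (SD, n = 3 each). Of the 8 epithelial markers 7 were tested, and 1 was called higher and 1 lower, against 21.1% and 21% of all tested genes. The sum of the 8 was 1945 to 2300 cpm in METTL7A1 and 1794 to 2175 cpm in mock libraries. The basal keratin Krt14 fell from 37.8 ± 1.16 to 9.79 ± 0.722 cpm and the luminal keratin Krt7 rose from 376 ± 29.2 to 533 ± 46.2 cpm (SD, n = 3 each), or -1.94 (SE 0.09, edgeR adjusted p = 7.54e-08) and 0.50 (SE 0.09, edgeR adjusted p = 0.00126) in log2 terms. Krt5, another basal keratin, had 0 counts in every library, which at 3 counts leaves room for 0.102 cpm in the deepest and 0.164 cpm in the shallowest scaled library (counting error only). The T cell marker Cd3e also had 0 counts, Ptprc at most 8 and the endothelial claudin Cldn5 at most 1 count in any library. Of the 6 immune markers, 2 were tested and both were called higher, too few to set against the 21.1% of all tested genes. Cd14 rose from 6.38 ± 0.864 to 17.6 ± 1.69 cpm and Csf1r from 0.764 ± 0.256 to 2.41 ± 0.118 cpm (SD, n = 3 each). Csf1r was tested only because its METTL7A1 libraries passed the abundance filter, as mock replicates 1 to 3 had 0.984, 0.825 and 0.483 cpm. The summed level of the immune list was 18.4 to 21.5 cpm in METTL7A1 and 6.20 to 8.42 cpm in mock libraries. None of the 6 endothelial markers was tested, and their sum was 1.59 to 1.62 cpm against 1.11 to 2.05 cpm. Of the 7 fibroblast markers only Pdgfra was tested, 1 gene being too few to set against the 21.1% of all tested genes. It was called higher (log2 fold change 0.47, SE 0.09, edgeR adjusted p = 0.00177), from 17.7 ± 1.32 to 24.5 ± 1.44 cpm (SD, n = 3 each). Pdgfra made up most of the sum of the fibroblast list, 24.0 to 26.9 cpm against 17.8 to 19.9 cpm. The part of these lists in the tight junction results was not tested. Mitochondrial transcripts took 17.7% of the counts of METTL7A1 replicate 1 and 8.61% to 12.7% of those of the other 5 libraries. METTL7A1 replicate 1 was also the lowest METTL7A1 library for 7 of the 9 tight junction genes (77.8%), as it was for 41.3% of all tested genes. The mock libraries differed in composition too. Together the genes AY036118 and Gm42418 took 14.2%, 5.65% and 1.48% of the counts in mock replicates 1 to 3. In METTL7A1 replicates 1 to 3 they took 0.872%, 2.98% and 4.94%.

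Promoter sequences are shown because 6 of the 9 genes carried the same short motif near a start of transcription. The letters CACCTG, an E-box, are those recognised by the EMT repressors of the Snail and Zeb families. In the RefSeq promoter windows of build GRCm38.p6, which run from 250 bases before to 50 bases after each annotated start, all 9 genes had a sequence (15 windows) and Cldn3, Cldn4, Cldn7, Tjp3, Ocln and Marveld2 held the motif on either strand, where the opposite one reads as CAGGTG. Among all 27025 genes with windows of this length 22.6% held it. Cldn1, Cldn12 and Tjp1 held none in these windows. The motif AACCGGTT, read by the epithelial Grainyhead-like factors, was in none of the 9, against 0.174% of all genes. A match of letters is a description and not a binding site. The stretches of 30 bases around the motif are given 5′ to 3′ on the strand of the gene, with the motif in capitals. Those of the nearby genes Cldn3 and Cldn4 lie at chr5:134986233-134986262 (plus strand), chr5:134946931-134946960 and chr5:134946906-134946935 (minus strand). For Tjp3, Ocln and Marveld2 the copy nearest an annotated start is shown, at chr10:81291267-81291296, chr13:100552694-100552723 and chr13:100616911-100616940 (all on the minus strand).
Cldn3: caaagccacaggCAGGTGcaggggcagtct
Cldn4, first: ctttaactgcagCACCTGtggccgcccttt
Cldn4, second: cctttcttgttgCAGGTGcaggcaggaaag
Tjp3: cacaaaccctccCACCTGcaggccggcctc
Ocln: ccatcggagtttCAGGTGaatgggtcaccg
Marveld2: ccggcggccgcgCAGGTGagtggggccgcg

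The comparison of METTL7A1 with mock cells asked whether the transcripts of the sealing strand and its scaffold change in abundance. All 9 were higher in METTL7A1 cells at an adjusted p under 0.05 (edgeR quasi-likelihood test, Benjamini-Hochberg adjusted over all tested genes), and 0 lower, whereas 42.1% of all tested genes were called, 21.1% higher and 21% lower. Because these genes were chosen with earlier results of these data known, the comparison of shares only describes them. The 9 genes fell apart by size. Cldn1, Tjp3, Cldn3 and Cldn4 rose by log2 fold changes between 1.19 and 2.38, and the other 5 by 0.33 to 0.42. The median log2 fold change of the 9 was 0.42, compared with -0.03 over all tested genes. In 8 of the 9 the METTL7A1 libraries lay entirely above the mock libraries and in none entirely below, as in 25.9% and 25.6% of all tested genes, and Cldn7 was the exception. With the fold change criterion of the study (adjusted p under 0.01 and an absolute log2 fold change over 1.5), Cldn1 and Tjp3 were called, both higher, against 2.48% of all tested genes (1.61% higher and 0.866% lower). Cldn1, however, passed the abundance filter only through the METTL7A1 group, where it is high.

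**Figure D1:**
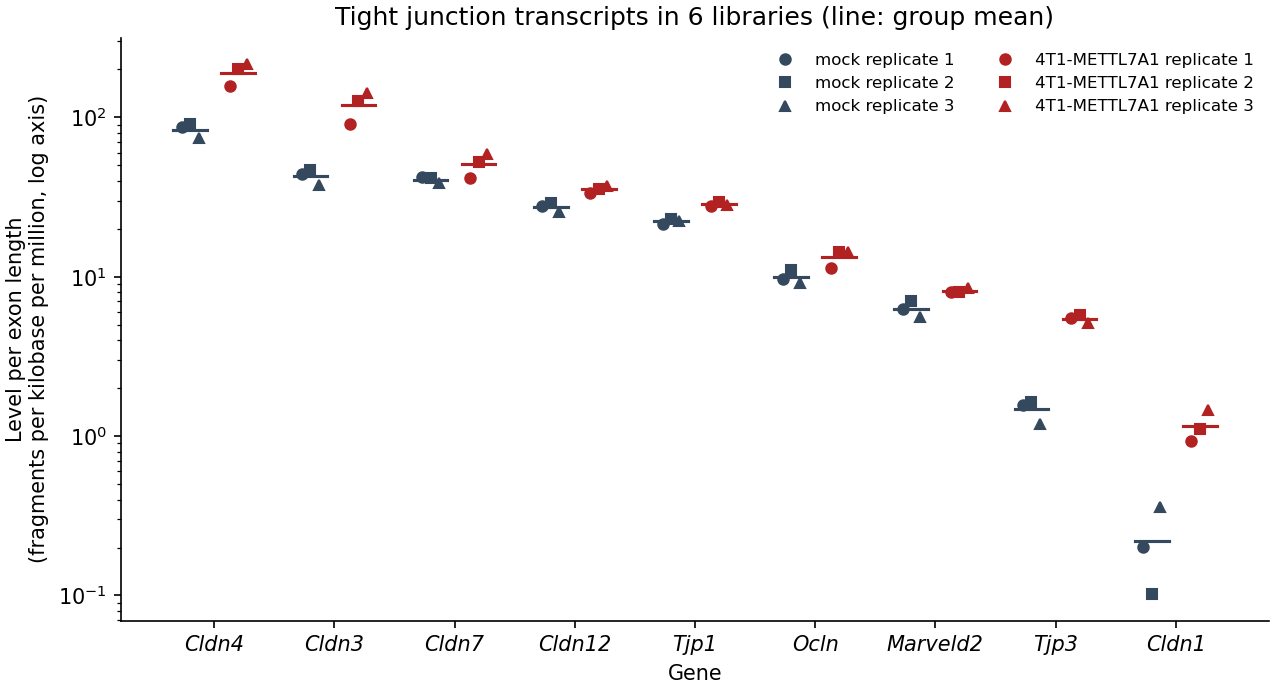
Level of each of the 9 transcripts per exon length as FPKM, the cpm divided by exon length in kilobases (log axis), in the 3 mock and 3 METTL7A1 libraries, with symbols for replicate numbers and a line at each group mean. Cldn4 is the most abundant in both groups (83.9 in mock and 191 in METTL7A1 cells on average) and Cldn1 the least (0.221 and 1.16), and the groups overlap for Cldn7 alone.

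Cldn4 (chromosome 5, 134945119 to 134946934 in build mm10, minus strand) encodes a sealing claudin of simple epithelia and was the most abundant of the 9 per length. Its abundance was 159, 164 and 134 cpm in mock replicates 1 to 3 and 285, 364 and 392 cpm in METTL7A1 replicates 1 to 3. Every METTL7A1 library exceeded every mock library, with METTL7A1 replicate 1 the nearest to them. The mean rose from 152 ± 16.1 to 347 ± 55.5 cpm (SD, n = 3 each), or 1.19 in log2 terms (SE 0.12, edgeR adjusted p = 2.40e-05).

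Cldn3 encodes a closely related sealing claudin and is transcribed from the opposite strand 39279 bases away on chromosome 5 (134986214 to 134987472). It had 55.2, 59.0 and 47.1 cpm in mock replicates 1 to 3 and 114, 160.3 and 179 cpm in METTL7A1 replicates 1 to 3. The groups were again fully apart, and METTL7A1 replicate 1 was again the lowest of its group. The log2 fold change was 1.49 (SE 0.15, 95% interval 1.17 to 1.81), and it went above 1.5 when METTL7A1 replicate 1 (1.67), mock replicate 1 (1.53) or mock replicate 2 (1.56) was left out. The transcripts of Cldn3 and Cldn4 share only 5 of their stretches of 31 bases. Wbscr25, which overlaps 40 exon bases of Cldn3 on the opposite strand, had at most 18 counts in any library.

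The adjacency of this pair was looked at further. Wbscr27, which lies 2.48 kb from Cldn4, rose as well, from 3.71 to 8.66 cpm (log2 fold change 1.22, SE 0.14, edgeR adjusted p = 4.74e-05). On the other side of Cldn3, Abhd11 at 21.7 kb and Stx1a at 36.0 kb differed by log2 values of 0.17 (SE 0.09) and 0.02 (SE 0.09) and did not pass the test. Limk1, 256 kb beyond Cldn4, did not pass it either (0.08, SE 0.12). Among tested genes in this stretch, the adjacent Wbscr27, Cldn4 and Cldn3 were thus called higher and those flanking them were not. The claudin gene Cldn13, which lies on the same side as Wbscr27, had 0 counts in every library.

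Cldn1 (chromosome 16, 26356642 to 26371841) encodes the claudin best known for the barrier of the epidermis and was scarce in 4T1 cells. It had 12, 8 and 29 counts in mock replicates 1 to 3 and 56, 107 and 116 counts in METTL7A1 replicates 1 to 3. The groups did not overlap, although the mock libraries differed widely among themselves. Cldn1 passed the abundance filter only through the METTL7A1 group, since mock replicates 1 to 3 had 0.656, 0.330 and 1.17 cpm. The mean rose from 0.718 ± 0.422 to 3.78 ± 0.854 cpm (SD, n = 3 each), or 2.38 in log2 terms (SE 0.35, 95% interval 1.62 to 3.15, edgeR adjusted p = 0.000291), which gave it rank 120 of 13166 by absolute fold change. Mock replicate 3, the highest mock library, weighed on its size, since the log2 fold change was 3.01 without it and 2.01 without mock replicate 2. Over the 6 libraries, the centred log2 cpm of Cldn1 was compared with that of 11660 genes that averaged 50 counts or more. The most alike were Mmp13, a collagenase gene (root mean square difference 0.207), Bst1, an ectoenzyme gene (0.208), and Il1bos (0.233). Their own log2 fold changes were 2.22, 2.20 and 2.38. With 3 libraries a group, this likeness mostly repeats a similar difference between the groups, and shared regulation was not tested.

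Cldn7 (chromosome 11, 69964779 to 69967885) encodes a claudin that is found along the whole lateral membrane as well as in the junction. Its abundance was 62.4, 61.2 and 57.0 cpm in mock replicates 1 to 3 and 61.8, 77.5 and 87.3 cpm in METTL7A1 replicates 1 to 3. METTL7A1 replicate 1 fell within the mock libraries, and the other two lay above all of them. On the log2 scale the difference was 0.33 (SE 0.11, edgeR adjusted p = 0.0298). The call was lost without METTL7A1 replicate 2 (0.31), METTL7A1 replicate 3 (0.22) or mock replicate 1 (0.37), 2 (0.34) or 3 (0.30), with edgeR adjusted p values from 0.0565 to 0.114, and it held without METTL7A1 replicate 1 (0.46, edgeR adjusted p = 0.000682).

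Cldn12, an atypical claudin, had 109.55, 114 and 101 cpm in mock and 133, 139 and 147 cpm in METTL7A1 replicates 1 to 3. All METTL7A1 libraries were higher, and neither group varied much. The mean went from 108 ± 6.996 to 139.5 ± 6.77 cpm (SD, n = 3 each), or 0.37 in log2 terms (SE 0.07, edgeR adjusted p = 0.00224). Cldn12 lies on chromosome 5 (5505015 to 5514873), far from Cldn3 and Cldn4.

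Because the claudins rose unequally, their mixture changed. The summed level of all claudin transcripts per length was 204, 209.9 and 178 in mock replicates 1 to 3 and 329, 422 and 461 FPKM in METTL7A1 replicates 1 to 3. The share of Cldn3 in this sum was 21.6 ± 0.663% in mock and 29.5 ± 1.73% in METTL7A1 cells, and that of Cldn4 42.5 ± 0.888% and 47.3 ± 0.461% (SD, n = 3 each). Cldn7 and Cldn12 took smaller shares in METTL7A1 cells, with 12.7 ± 0.206% against 20.7 ± 0.957% and 8.90 ± 1.19% against 13.9 ± 0.368% (SD, n = 3 each). Cldn1 made up 0.116 ± 0.0782% in mock and 0.287 ± 0.0254% in METTL7A1 cells (SD, n = 3 each), and 0.0737% in mock cells without mock replicate 3. In mock cells the levels of Cldn3 and Cldn7 per length overlapped between libraries (37.4 to 46.9 and 38.6 to 42.3), while in METTL7A1 cells Cldn3 (90.6 to 142) stood above Cldn7 (41.8 to 59.1) in every library. Apart from this pair, neighbours in the order of levels did not overlap in either group, and the order of the 9 group means was the same in both.

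**Figure D2:**
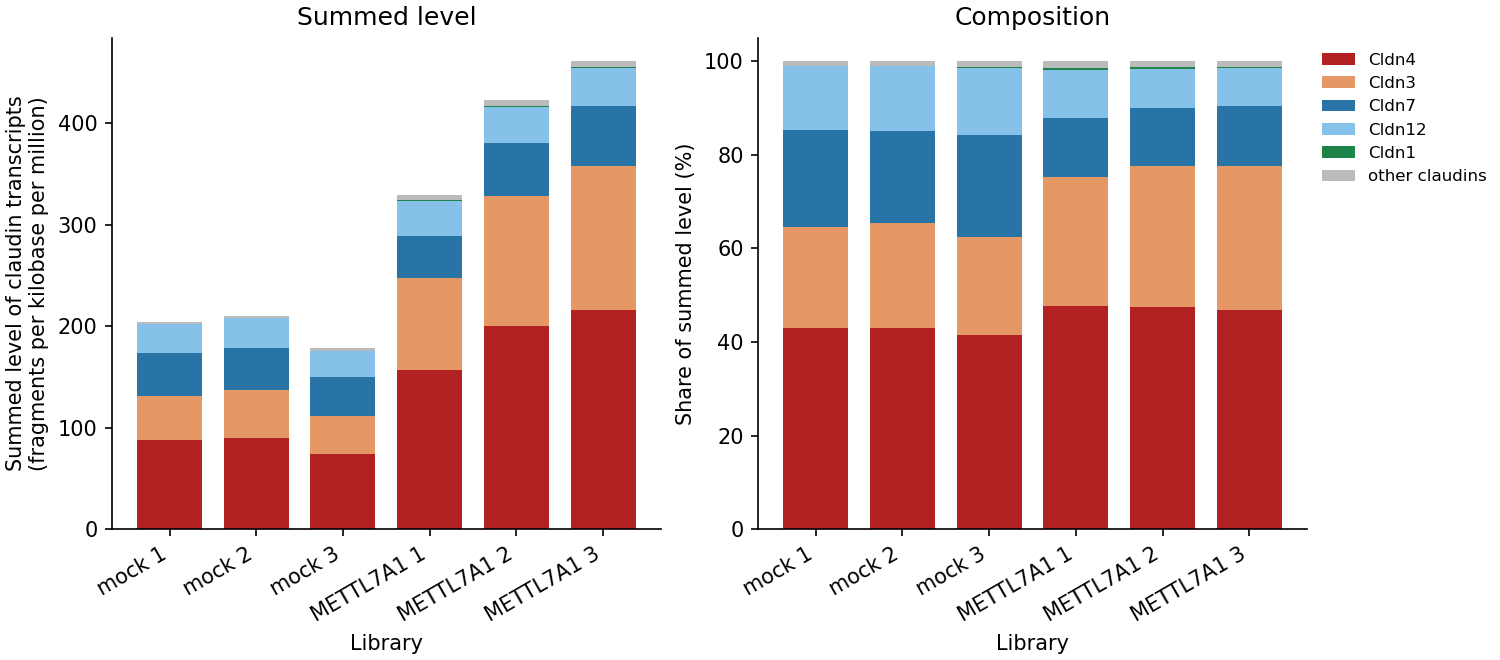
Stacked bars of the claudin transcripts in each library, as summed level per exon length in FPKM (left) and as share of that sum in percent (right). The sum lies between 178 and 209.9 in the mock and between 329 and 461 in the METTL7A1 libraries, and on the right the bands of Cldn4 and Cldn3 widen while those of Cldn7 and Cldn12 narrow.

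Ratios of per-length levels within a library, which do not depend on library scaling, were compared for 6 pairs of genes with a two-sided exact permutation test. With 3 libraries a group its smallest p is 0.1, so none of these could reach 0.05. The Cldn4 to Cldn7 ratio was 2.06 ± 0.133 in mock and 3.74 ± 0.0867 in METTL7A1 cells (SD, n = 3 each, exact permutation p = 0.1, 0.15 adjusted over the 6 pairs). The Cldn3 to Cldn4 ratio was 0.509 ± 0.00982 and 0.624 ± 0.0416, and the Tjp3 to Tjp1 ratio 0.0657 ± 0.0108 and 0.191 ± 0.00834 (SD, n = 3 each, exact permutation p = 0.1 for both). These ratios, and that of Cldn4 to Cldn12, were higher in each METTL7A1 library than in any mock library. The Ocln to Marveld2 ratio overlapped between the groups (1.58 ± 0.0492 in mock and 1.63 ± 0.195 in METTL7A1 cells; SD, n = 3 each, exact permutation p = 0.9), and so did that of Ocln to Tjp1 (0.444 ± 0.0345 and 0.466 ± 0.0537; SD, n = 3 each, exact permutation p = 0.6).

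Transcripts of the MARVEL family had smaller fold changes than those of Cldn3 and Cldn4. Ocln (chromosome 13, 100496507 to 100552718) had 41.2, 46.3 and 38.52 cpm in mock and 47.9, 60.2 and 60.7 cpm in METTL7A1 replicates 1 to 3. METTL7A1 replicate 1 lay just above the highest mock library. On the log2 scale the difference was 0.42 (SE 0.10, edgeR adjusted p = 0.00661). Marveld2, whose product tricellulin seals the corners where cells meet, lies 43238 bases from Ocln on the same strand (100595957 to 100616971). It had 21.3, 23.9 and 18.9 cpm in mock and 27.3, 27.2 and 28.6 cpm in METTL7A1 replicates 1 to 3, with no overlap. On the log2 scale the difference was 0.37 (SE 0.10, edgeR adjusted p = 0.00876). The tested genes on either side, Gtf2h2, 3.93 kb from Ocln, and Rad17, 0.194 kb from Marveld2, differed by log2 values of -0.11 (SE 0.10) and -0.11 (SE 0.09) and did not pass the test.

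Of the scaffold genes, Tjp3 rose far more than Tjp1. ZO-1, the product of Tjp1, organises the junction, while ZO-3 is largely limited to epithelia and is dispensable in many of them. Tjp3 (chromosome 10, 81273207 to 81291267) had 4.76, 4.95 and 3.62 cpm in mock and 16.7, 17.4 and 15.6 cpm in METTL7A1 replicates 1 to 3. Both groups were tight and wide apart. The mean rose from 4.44 ± 0.718 to 16.5 ± 0.920 cpm (SD, n = 3 each), or 1.90 in log2 terms (SE 0.13, 95% interval 1.60 to 2.20, edgeR adjusted p = 1.88e-06), the smallest p of the 9 genes. The exons of Tjp3 share 40 bases, 1.32% of their length, with those of Apba3 on the opposite strand, which had at most 1030 counts in any library. Summed over the libraries, Apba3 had 3900 counts and Tjp3 1504. Apba3 was itself called higher (log2 fold change 0.54, SE 0.11, edgeR adjusted p = 0.00252), and whether its reads entered the counts of Tjp3 was not tested. Tjp1 (chromosome 7, 65296165 to 65371239) had 153, 165 and 159.9 cpm in mock and 199, 209 and 201 cpm in METTL7A1 replicates 1 to 3. All METTL7A1 libraries were higher by a similar margin, by 0.35 in log2 terms (SE 0.07, edgeR adjusted p = 0.00179).

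Each gene was also set beside the 40 nearest genes with an average log2 cpm over 2 on its chromosome. The neighbours of Cldn3 and Cldn4 had a median log2 fold change of -0.13, and none of those of Cldn3 rose more than Cldn3. For Ocln and Marveld2 the median was -0.12, with 4 neighbours called higher and 11 lower, and for Cldn7 it was -0.16, with 5 higher and 16 lower. Over all tested genes, 21.1% were called higher and 21% lower. Tjp3 lay in a raised stretch of chromosome 10, where the median of the neighbours was 0.27 and 22 of 40 were called higher, and Cldn1 in one of chromosome 16 with a median of 0.13. When the median of the neighbours was taken out as an offset, all 9 genes were still called higher, Tjp3 with a log2 fold change of 1.63, Cldn1 with 2.26 and Cldn7 with 0.49.

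**Figure D3:**
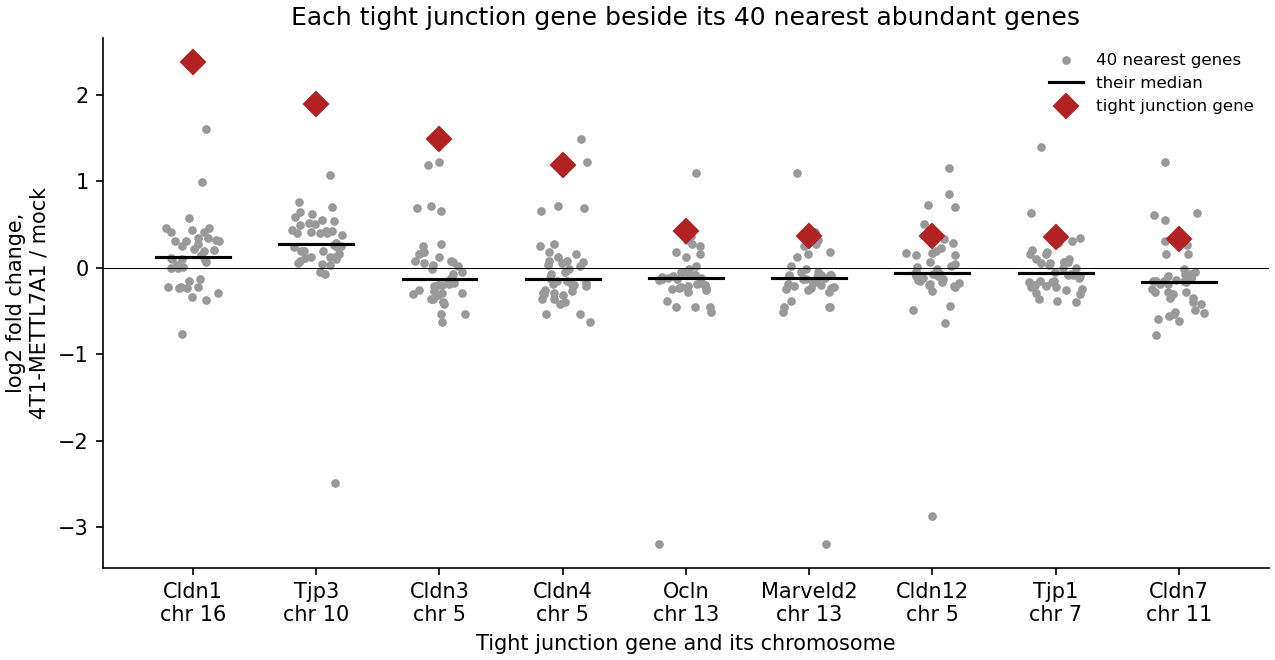
Log2 fold change (METTL7A1 over mock) of each of the 9 genes (diamonds) beside its 40 nearest genes of average log2 cpm over 2 on the same chromosome (grey points, line at their median). Cldn1, Tjp3 and Cldn3 lie above all of their neighbours, and the median of the neighbours lies between -0.16 and 0.27.

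The remaining claudins were mostly silent. Of 30 other claudin symbols, 19 had 0 counts in every library and 3 were tested. Cldn23 rose from 1.34 ± 0.0812 to 4.76 ± 0.575 cpm (SD, n = 3 each), or 1.83 in log2 terms (SE 0.19, edgeR adjusted p = 3.05e-05). Cldn6, an embryonic claudin, rose from 0.771 ± 0.156 to 1.72 ± 0.0496 cpm (SD, n = 3 each), or 1.13 in log2 terms (SE 0.24, edgeR adjusted p = 0.00355). Cldn6 was tested only because its METTL7A1 libraries passed the abundance filter, as mock replicates 1 to 3 had 0.601, 0.908 and 0.805 cpm. Cldn15 had 1.04 ± 0.357 cpm in METTL7A1 and 0.775 ± 0.167 cpm in mock cells (SD, n = 3 each) and did not pass the test. Cldn9, under the abundance filter, had 6, 11 and 7 counts in mock and 16, 36 and 23 counts in METTL7A1 replicates 1 to 3. It was called higher when the filter was dropped (log2 fold change 1.54, edgeR adjusted p = 0.000632). Dropping the filter also took the edgeR adjusted p of Cldn3 from 1.96e-05 to 2.62e-59. P values with and without the filter are thus not on the same scale. Cldn20 had at most 8 counts in any library, and a change in it was not detectable at this depth.

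Of 25 tested plaque and polarity genes 6 were called higher and 6 lower, shares near the 21.1% and 21% of all tested genes, and their median log2 fold change was -0.01. Those called higher included Cgnl1, the gene of the junction linker paracingulin (0.52, SE 0.07), Magi1, a membrane-associated scaffold gene (0.53, SE 0.08), and Pard6b, a subunit of the PAR polarity complex (0.40, SE 0.09). Those called lower included Sympk, which encodes symplekin, a protein of the plaque and of mRNA 3′ end formation (-0.43, SE 0.08), Mpp5, the gene of PALS1 in the Crumbs polarity complex (-0.41, SE 0.07), Amot, the gene of angiomotin (-0.39, SE 0.09), and Pard6a, another PAR subunit (-0.68, SE 0.20). Prkci, which encodes an atypical protein kinase C of the PAR complex (0.25, SE 0.08), Mllt4, the gene of afadin (0.21, SE 0.08), and Arhgef11, a guanine nucleotide exchange factor gene (0.20, SE 0.07), were called higher with the smallest differences. With the neighbour offset Mllt4 turned to -0.06 and Mpp5 to 0.09, and Pard6a (-0.52) and Pard6b (0.24) kept their direction without passing the test. Cgn, the gene of cingulin, differed by -0.01 in log2 terms (SE 0.07.)

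Of 17 other membrane proteins of the junction 8 were tested, 2 were called higher and none lower, against 21.1% and 21% of all tested genes. Cxadr, the gene of the adhesion molecule CAR, rose from 181 ± 11.3 to 316 ± 31.2 cpm (SD, n = 3 each), or 0.81 in log2 terms (SE 0.09, edgeR adjusted p = 4.48e-05). F11r, the gene of the adhesion molecule JAM-A, rose from 75.9 ± 2.96 to 96.2 ± 14.6 cpm (SD, n = 3 each), or 0.34 in log2 terms (SE 0.10, edgeR adjusted p = 0.0173), and did not pass the test with the neighbour offset (0.28). Epcam, whose product binds claudin-7, had a log2 fold change of -0.16 (SE 0.11), Lsr, the gene of angulin-1, which recruits tricellulin, one of -0.24 (SE 0.09), and Marveld3, the third MARVEL gene of the junction, one of -0.02 (SE 0.12), and none of these passed the test.

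Of 6 EMT repressors 3 were tested, of which 0 were called higher and 1 lower, too few to set against the 21.1% and 21% of all tested genes. Among those whose E-box is shown above, Snai1 stood at 5.27 ± 0.746 cpm in mock and 5.72 ± 0.446 cpm in METTL7A1 cells and Zeb2 at 35.5 ± 1.08 and 31.02 ± 2.87 cpm (SD, n = 3 each), log2 differences of 0.12 (SE 0.15) and -0.20 (SE 0.08) that did not pass the test. Twist1, another EMT factor, fell from 16.2 ± 1.49 to 9.09 ± 1.02 cpm (SD, n = 3 each), or -0.83 in log2 terms (SE 0.12, edgeR adjusted p = 0.000255). The 40 neighbours of Twist1 on chromosome 12 had a median of -0.51, and it did not pass the test with the neighbour offset (-0.31). Snai2 and Zeb1 were under the abundance filter, and Twist2 had 0 counts in every library.

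**Figure D4:**
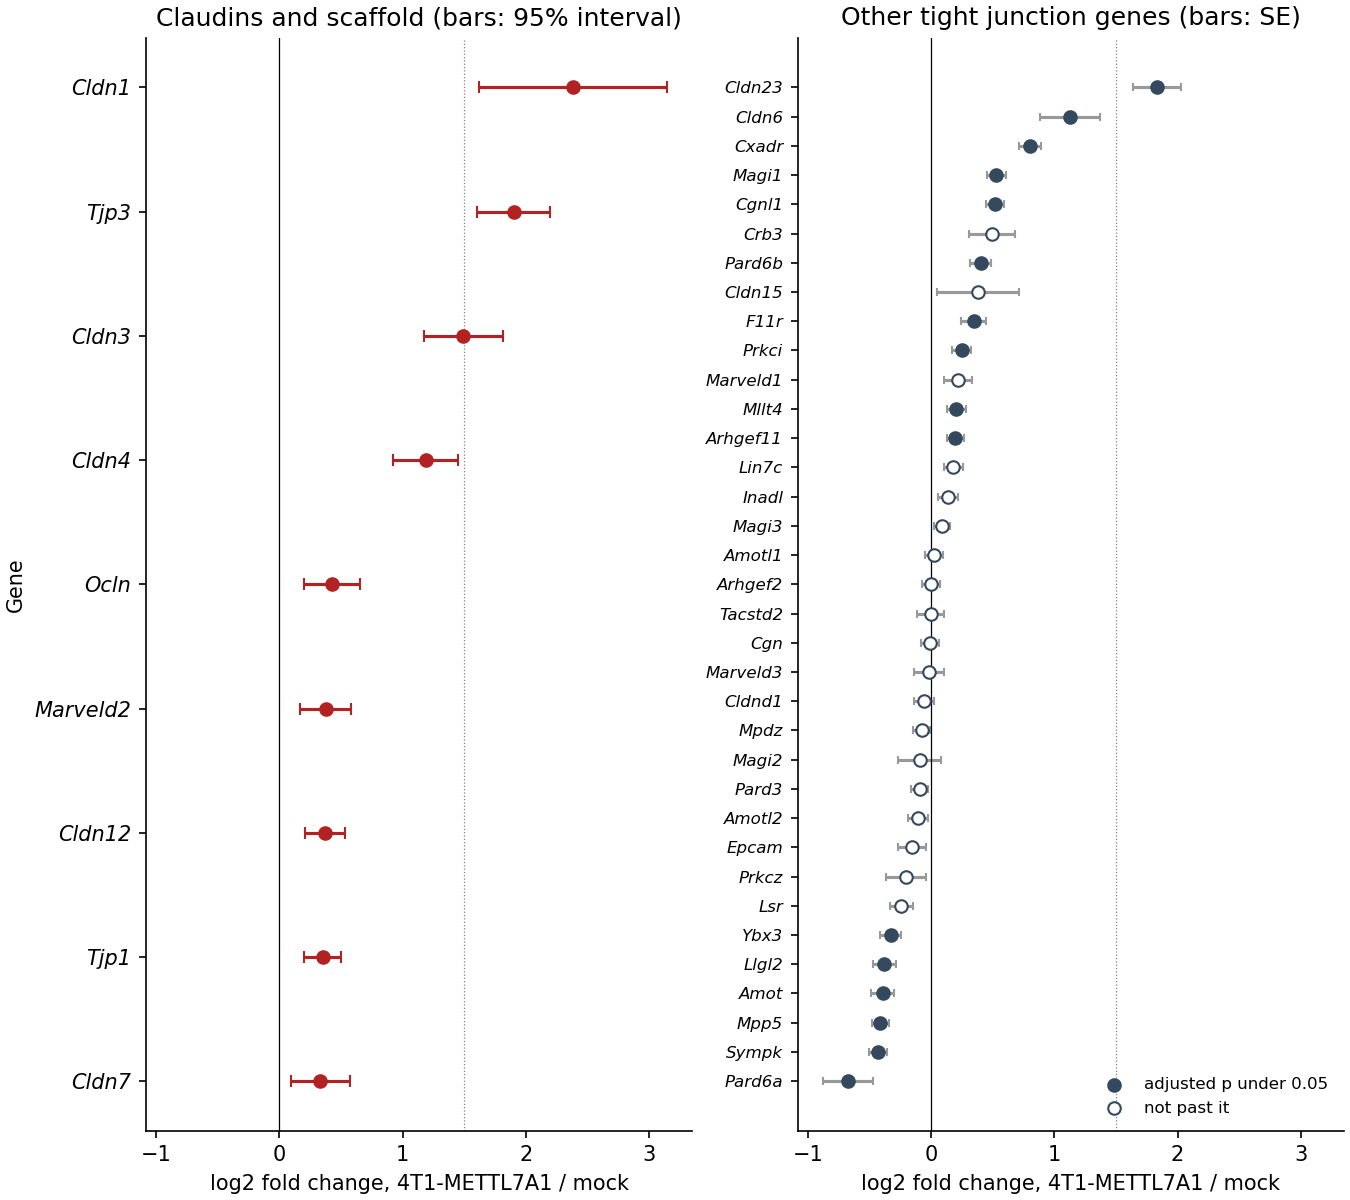
Log2 fold change (METTL7A1 over mock) of the 9 claudin, MARVEL and ZO genes with 95% intervals (left) and of other tested claudin, plaque and membrane genes of the tight junction with SE (right, filled where the adjusted p was under 0.05). The dotted line marks 1.5, and all 9 intervals on the left lie above 0 while the genes on the right run from -0.68 (Pard6a) to 1.83 (Cldn23).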

How the data were processed

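Total RNA of 6 libraries of 4T1 cells was depleted of ribosomal RNA and sequenced by a stranded Illumina protocol. The authors trimmed reads with BBDuk, aligned read pairs to mm10 with STAR (2.5.3a per the labels) and assigned them to Ensembl genes with featureCounts, and the deposited table holds raw counts per gene, not normalised. How strand and multiply mapped reads were treated is not given in the sources used here. The table also lists exon lengths, which other isoforms can inflate.

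Counts were fitted in R 4.3.3 with edgeR 4.0.16 (TMM scaling, glmQLFit and glmQLFTest, no covariate), after the study's filter of 1 cpm in 3 libraries. P values were Benjamini-Hochberg adjusted over all 13166 genes, and an adjusted p under 0.05 was a call. Library sizes for cpm were TMM-scaled, and levels between genes were divided by exon length in kilobases. The SE is the log2 fold change over the square root of F. P values measure the spread between these libraries only.

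The tight junction genes and all lists were chosen with earlier results of these data known. Beside the 9 genes, the text names in each list up to 5 called genes of smallest adjusted p, the 3 genes most like Cldn1, chromosome neighbours and, chosen after their values were seen, further genes of known function. Inadl and Mllt4 are the table's older symbols for Patj and Afdn. Promoters are RefSeq GRCm38.p6 sequences, and stretches of 31 bases were counted in GENCODE M21 transcripts. Alternatives were RLE and upper quartile scaling, other filters, removal of the 20 most abundant genes, a replicate block, DESeq2 1.42.0, voom of limma 3.58.1, an offset for the 40 nearest neighbours, and each library left out. The fit was tested on simulated data first. All 6 columns of counts were mapped to libraries by name. Some list members counted in the totals are not reported here by name.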

Additional observations from a re-analysis of the deposited data

How the results depend on the processing

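The 9 tight junction genes kept their direction in every alternative that tested them, and between 8 and 9 of them were called higher. Cldn1 could not be tested with at least 10 counts in every library. Only Cldn7 lost its call, with the replicate block (log2 fold change 0.32, edgeR adjusted p = 0.0555) and in 5 of 6 fits with a library omitted (0.22 to 0.46 over all 6), the cause of which was not tested. Libraries with the same replicate number were not treated as pairs in the main fit. The deviations of same-numbered libraries from their group means had correlations of -0.15, 0.20 and -0.37. With so few libraries these values cannot settle whether the libraries were paired. At the study thresholds 326 of all genes were called, compared with 710 when all 28601 genes with any count were kept and 205 when each library had to reach 10 counts. In the last case 1 of the 9 was called, since Cldn1 was not tested. The 2759 genes called lower became 1762 with the neighbour offset, and the 10 other junction genes and regulators called lower became 5. The 14 called higher ranged from 9 to 15 with a library left out, 9 without METTL7A1 replicate 2 and 9 without METTL7A1 replicate 3, and were 11 with the replicate block, under which Prkci, Mllt4 and Arhgef11 lost their calls. Without division by length, the shares in METTL7A1 and mock cells were 0.518% and 0.197% for Cldn1, 20.7% and 14.2% for Cldn3, 10.4% and 15.9% for Cldn7 and 19.5% and 28.6% for Cldn12, and 40.2% for Cldn4 in mock cells, because these genes differ in exon length. For genes as scarce as Cldn1, counting error adds to the spread between libraries.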

Other observations

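Epithelial transcription factors and the membrane protease system that acts on tight junctions were looked up as well. Of 10 tested activators of epithelial genes 2 were called higher and 3 lower, shares near the 21.1% and 21% of all tested genes. Ehf, an ETS factor of epithelia, rose from 2.54 ± 0.127 to 14.1 ± 1.33 cpm (SD, n = 3 each), or 2.48 in log2 terms (SE 0.14, edgeR adjusted p = 3.19e-07), and its relative Elf3 from 19.7 ± 2.05 to 27.4 ± 1.03 cpm (SD, n = 3 each), or 0.48 in log2 terms (SE 0.09, edgeR adjusted p = 0.00188). Both were called in every alternative run. Grhl2, the Grainyhead-like factor known for claudin expression, had 68.6 ± 3.53 cpm in mock and 66.4 ± 1.58 cpm in METTL7A1 cells (SD, n = 3 each) and did not pass the test (-0.05, SE 0.07). Klf5 (-0.29, SE 0.08), Esrp1 (-0.25, SE 0.08) and Grhl1 (-0.64, SE 0.18) were called lower, but with the neighbour offset none of them passed the test, and Klf5 turned to 0.01.

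Of 4 genes of the protease system 2 were called higher and 0 lower, against 21.1% and 21% of all tested genes, and 1 of these calls was lost with the neighbour offset. Prss8, the gene of prostasin, rose from 6.63 ± 0.898 to 12.4 ± 1.54 cpm (SD, n = 3 each), or 0.91 in log2 terms (SE 0.14, edgeR adjusted p = 0.000426). Spint1, the gene of an inhibitor of matriptase, rose by 0.37 on the log2 scale (SE 0.09, edgeR adjusted p = 0.00856). With the neighbour offset (a median of 0.30 on chromosome 2) it differed by 0.07 and did not pass the test. St14, the gene of matriptase, and Spint2 differed by log2 values of 0.14 (SE 0.10) and -0.15 (SE 0.10) and did not pass the test.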
